A study of Mus musculus with 12 samples.

Results

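Transcripts of 10 genes of the Notch pathway were followed in primary mouse brain endothelial cells (BECs): the receptors Notch1, Notch2, Notch3 and Notch4, the ligands Jag1, Dll1 and Dll4, and the target genes Hes1, Hey1 and Heyl. The genes were chosen by name for their role in the pathway, and all 10 were found among the 27321 genes present in both deposited tables (29965 genes under normoxia and 29775 after deprivation). BECs came from C57BL/6 mice (the knockout line has a C57BL/6J background) carrying the gene of the neuropeptide cortistatin (Cort+/+) or lacking it (Cort-/-), each replicate being a pool from 3 mice. The study's methods give an age of 8 weeks for these cultures and an enrichment of endothelial cells with puromycin. Cultures were kept for 24 h in normoxia and normoglycemia (NX/NG, 21% oxygen) or were deprived of glucose and serum for 4 h at 1% oxygen and then reoxygenated in complete medium for 20 h (OGD-R), an in vitro model of ischemia and reperfusion. Per environment 3 Cort+/+ and 2 Cort-/- libraries entered. Of the Cort-/- samples, replicate 3 under NX/NG and replicate 2 under OGD-R were left out because the labels tie no deposited table to them.

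Notch signalling passes between cells that touch. A ligand of the Jagged or Delta-like family on one cell binds a receptor on its neighbour, the receptor is cut by ADAM10 and then by the γ-secretase complex, and the freed intracellular domain joins the DNA-binding protein RBPJ in the nucleus to switch on repressors of the HES and HEY families. In growing vessels Dll4 restrains sprouting and favours arterial identity while Jag1 opposes it. Notch1 and Notch4 are the receptors of endothelium, and Notch3 is mainly a receptor of pericytes and smooth muscle cells.

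Each library held between 12386048 and 12390428 reads on genes, so depth was nearly equal. Cort itself, the deleted gene, had 0 reads in all Cort-/- libraries but only 1 or 2 reads in the 3 Cort+/+ NX/NG libraries and 1 read in 1 of the 3 Cort+/+ OGD-R libraries, too few to check the genotype labels. The ribosomal transcript Rn18s-rs5 accounted for 7.64 to 15.8% of all reads, except for 2 libraries made after OGD-R. These were replicate 3 of Cort-/- (0.0951%) and replicate 1 of Cort+/+ (0.0775%), and several member results that rest on them are also given without them. Values of markers and of further pathway genes are given with all libraries only. The 10 endothelial markers summed to between 1061 and 1528 RPKM (reads scaled to gene length and library size), whereas the marker lists of astrocytes, neurons, oligodendrocytes and microglia each stayed under 1 RPKM. The 5 smooth muscle markers, led by the actin gene Acta2, summed to between 1147 and 2039 RPKM. Of these, Myh11 lay only between 0.506 and 2.11 RPKM and Cnn1 between 6.08 and 16.4 RPKM. The 5 fibroblast markers summed to between 62.8 and 279 RPKM. The 5 epithelial markers, led by the keratin gene Krt18, summed to 49.97 RPKM in Cort+/+ NX/NG replicate 2, to 37.6 RPKM in Cort-/- OGD-R replicate 1 and to between 1.43 and 13.7 RPKM elsewhere. In such bulk RNA, fewer cells of a type and less RNA per cell cannot be told apart.

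The 2 pairs of members whose levels varied together most closely over the libraries, as described further on, are shown here by the sequence upstream of their start. The pairs were Notch4 with Dll4 and Notch2 with Notch3, and the members of one pair varied against those of the other. The sequences are the 250 bases before the start in the mouse RefSeq annotation (GRCm38.p6), read 5′ to 3′ on the strand of the gene. Capitals mark the ETS core GGAA or its reverse complement TTCC, the letters bound by endothelial ETS factors, and the hypoxia response core ACGTG or its reverse complement CACGT.
Notch4 (chr17:34564045-34564294, plus strand): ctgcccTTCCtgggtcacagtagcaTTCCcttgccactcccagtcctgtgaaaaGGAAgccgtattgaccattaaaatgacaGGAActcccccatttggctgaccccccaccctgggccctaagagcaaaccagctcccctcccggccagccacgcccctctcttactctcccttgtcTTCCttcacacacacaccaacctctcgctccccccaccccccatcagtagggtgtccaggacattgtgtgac
Dll4 (chr2:119325534-119325783, plus strand): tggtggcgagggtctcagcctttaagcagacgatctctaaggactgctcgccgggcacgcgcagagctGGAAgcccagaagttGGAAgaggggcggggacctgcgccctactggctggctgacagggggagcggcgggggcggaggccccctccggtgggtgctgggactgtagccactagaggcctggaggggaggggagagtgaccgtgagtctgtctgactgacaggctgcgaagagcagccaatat
Notch2 (chr3:98013288-98013537, plus strand): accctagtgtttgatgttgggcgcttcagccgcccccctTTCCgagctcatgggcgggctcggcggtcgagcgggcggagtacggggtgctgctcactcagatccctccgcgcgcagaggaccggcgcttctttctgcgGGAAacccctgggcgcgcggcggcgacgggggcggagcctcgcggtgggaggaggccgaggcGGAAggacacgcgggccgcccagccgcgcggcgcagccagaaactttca
Notch3 (chr17:32166891-32167140, minus strand): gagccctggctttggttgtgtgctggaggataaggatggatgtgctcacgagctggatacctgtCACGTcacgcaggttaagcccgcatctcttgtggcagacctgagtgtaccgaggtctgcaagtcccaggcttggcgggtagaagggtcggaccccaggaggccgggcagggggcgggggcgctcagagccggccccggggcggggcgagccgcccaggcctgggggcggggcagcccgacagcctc
Notch4 held 5 ETS cores, Dll4 held 2, Notch2 held 3 and Notch3 held none. Of the 32851 mouse promoters read in the same way, 93.5% held at least 1 ETS core and 18.0% held 5 or more, so that Notch3 belonged to the 6.55% without one. The hypoxia response core was found once, upstream of Notch3, and 16.6% of all promoters held it. Promoters were listed for 7 of the 10 members. Among the other ones listed, Notch1 held 4 ETS cores, Jag1 held 3, and Dll1 held 1 before each of its 2 starts. The RBPJ core TGGGAA or its reverse complement TTCCCA occurred in 21.6% of all promoters and in none of the 7 members. A match of letters is a description of these windows and not a binding site.

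BECs expressed a clear order of Notch transcripts on the length-corrected RPKM scale. Dll4 (median 36.7 RPKM over the 10 libraries), Notch4 (35.7 RPKM) and Jag1 (29.5 RPKM) led, and their ranges overlapped, so that their order among themselves was not separated. Hes1 followed at 15.5 RPKM, Notch1 at 12.1 RPKM and Notch2 at 4.47 RPKM, each below the one before it in all 10 libraries. Hey1 had a median of 2.60 RPKM and Notch3 of 1.54 RPKM. The ranges of Hey1 and Notch3 overlapped between libraries, although Hey1 was the higher of the pair in each of the 10 libraries. Dll1 (0.163 RPKM) and Heyl (0.126 RPKM) rested on at most 13 and 21 reads per library, and neither was the higher of the pair in more than 5 libraries.

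**Figure D1:**
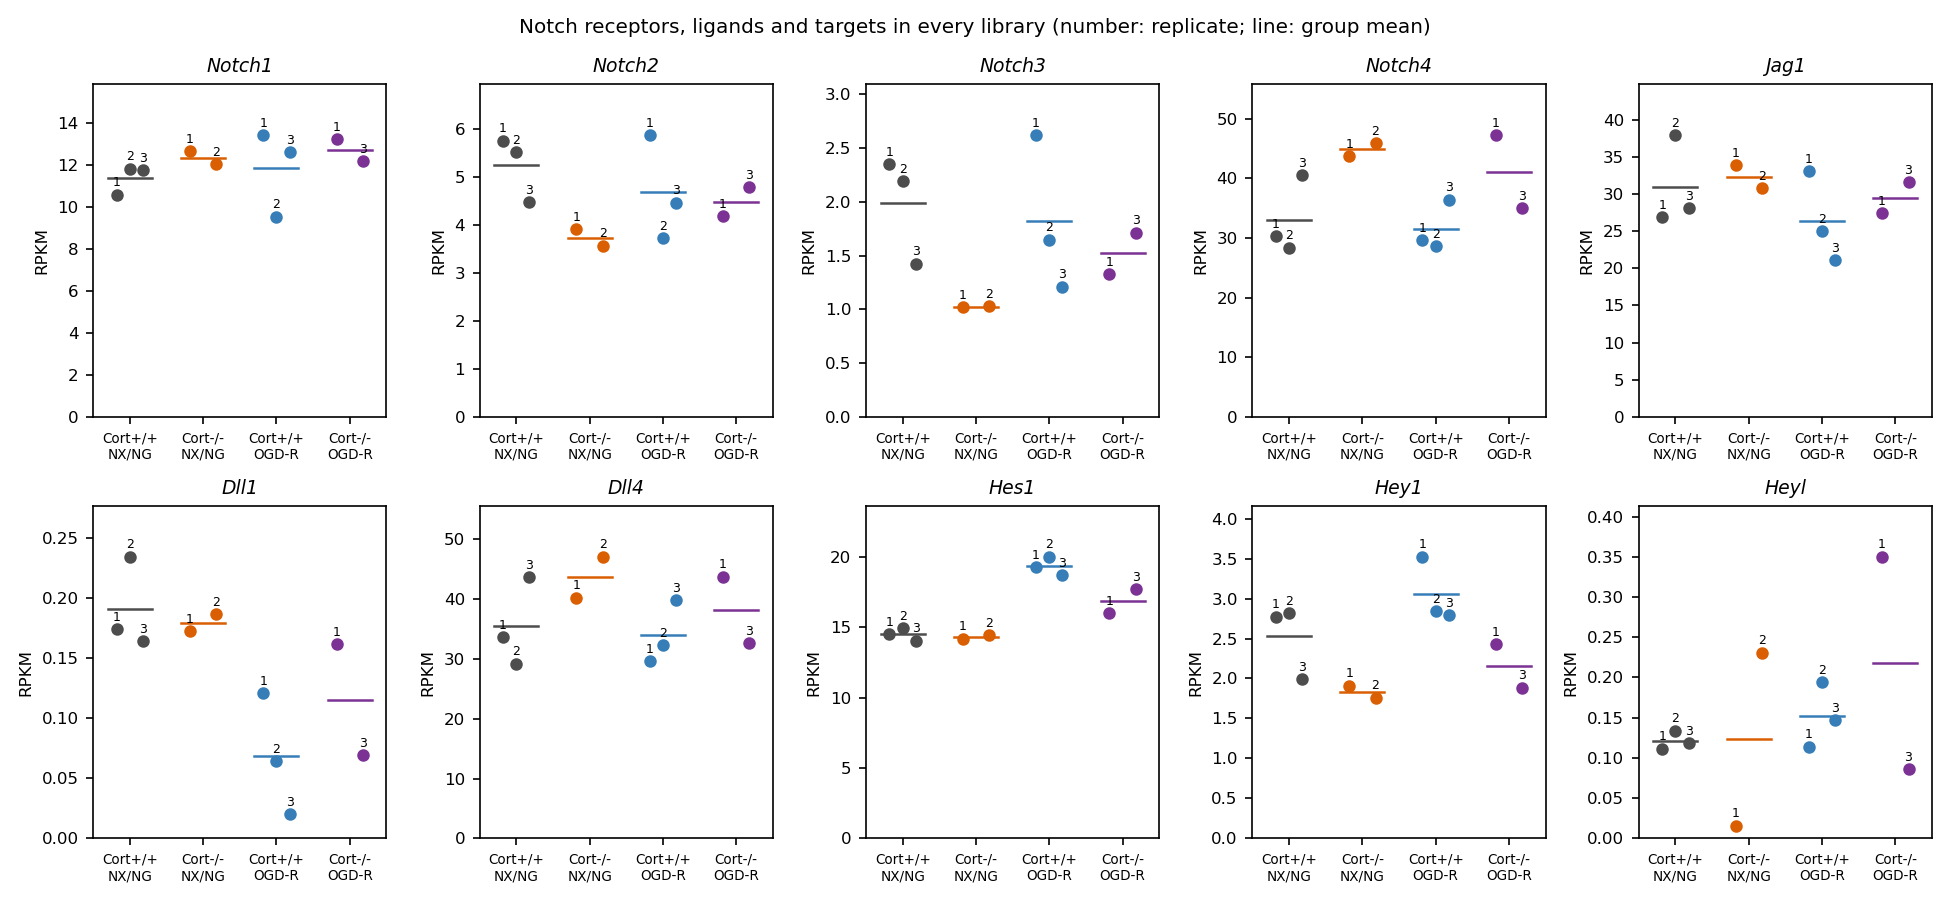
RPKM of the 10 Notch members in each library (points, with the replicate number of the labels) and the mean of each group (lines), on linear axes that start at 0. Notch3 lies lowest in the Cort-/- NX/NG libraries, the 3 highest values of Notch4 are in Cort-/- libraries, and Hes1 lies between 18.7 and 20.03 RPKM in the Cort+/+ OGD-R libraries against 14.0 to 14.9 RPKM in the Cort+/+ NX/NG libraries.

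The first comparison asked whether loss of cortistatin altered the members in resting endothelium. Under NX/NG none of the 10 members passed the test at a false discovery rate (FDR) of 0.05, and nor did any other gene (0% of 29965 genes, limma on log2(RPKM + 0.1)). At an unadjusted p under 0.05 there were 3 members, Notch2 and Notch3 with lower and Notch4 with higher values in Cort-/- BECs, where 8.39% of all genes reached that level. The groups did not overlap for 5 of the 8 members averaging 1 RPKM or more, against 32.9% of the 13722 genes of that level. The median log2 fold change of the 10 members was -0.03, beside -0.01 over all genes tested.

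Among the receptors, Notch3 was at 1.02 and 1.03 RPKM in the Cort-/- libraries and at 2.35, 2.19 and 1.43 RPKM in Cort+/+ replicates 1, 2 and 3. The Cort-/- values were below all Cort+/+ values, and Cort+/+ replicate 3 lay nearest to them. The log2 fold change was -0.86 (SE 0.25, 95% confidence interval -1.50 to -0.22, unadjusted p = 0.0180, limma FDR 0.469), that is 0.550-fold.

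Notch2, a receptor broadly present in vascular cells, was at 3.91 and 3.57 RPKM in Cort-/- BECs against 5.76, 5.51 and 4.47 RPKM in Cort+/+ BECs. The groups again did not overlap and replicate 3 was again the lowest of the Cort+/+ libraries. The log2 fold change was -0.47 (SE 0.13, interval -0.81 to -0.13, unadjusted p = 0.0162, limma FDR 0.457).

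Notch4 was at 43.7 and 45.9 RPKM in Cort-/- BECs against 30.3, 28.4 and 40.5 RPKM in Cort+/+ BECs. The direction was opposite to that of Notch2 and Notch3, with replicate 3 as the highest Cort+/+ library. The log2 fold change was 0.46 (SE 0.16, interval 0.04 to 0.88, unadjusted p = 0.0379, limma FDR 0.558). Notch1 differed little, with 12.7 and 12.1 RPKM against 10.6, 11.8 and 11.8 RPKM and a log2 fold change of 0.12 (SE 0.07, interval -0.06 to 0.30).

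Without Cort+/+ NX/NG replicate 3 the log2 fold changes were -1.07 for Notch3, -0.58 for Notch2 and 0.61 for Notch4, and the limma FDR of these genes lay between 0.170 and 0.219. These values were the largest in size among the 5 fits with single libraries left out. Those fits ran from -1.07 to -0.73 for Notch3, from -0.58 to -0.40 for Notch2 and from 0.36 to 0.61 for Notch4. With limma-voom on the recovered reads, which called 124 genes (0.414%) in this comparison, no member was called and the FDR was 0.131 for Notch3, 0.128 for Notch2 and 0.131 for Notch4. No alternative brought the FDR of any member in any comparison below 0.128.

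The make-up of the receptor pool can be read within each library, where scaling between libraries plays no part. Notch4 made up 71.3 and 73.4% of the summed receptor RPKM in the Cort-/- NX/NG libraries and 61.8, 59.2 and 69.6% in the Cort+/+ NX/NG libraries. Notch3 made up 1.66 and 1.65% in the former and 4.80, 4.57 and 2.45% in the latter. The ratio of Notch4 to Notch3 RPKM was accordingly 42.8 and 44.5 in Cort-/- BECs and 12.9, 12.9 and 28.4 in Cort+/+ BECs. The ratio of Notch4 to Notch2 was 11.2 and 12.9 against 5.26, 5.15 and 9.05. Under OGD-R these ratios overlapped between genotypes, with Notch4 to Notch3 at 35.6 and 20.4 in Cort-/- BECs and 11.3, 17.4 and 30.1 in Cort+/+ BECs. The ratios rest on the same values as the tests above and are given as a description.

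**Figure D2:**
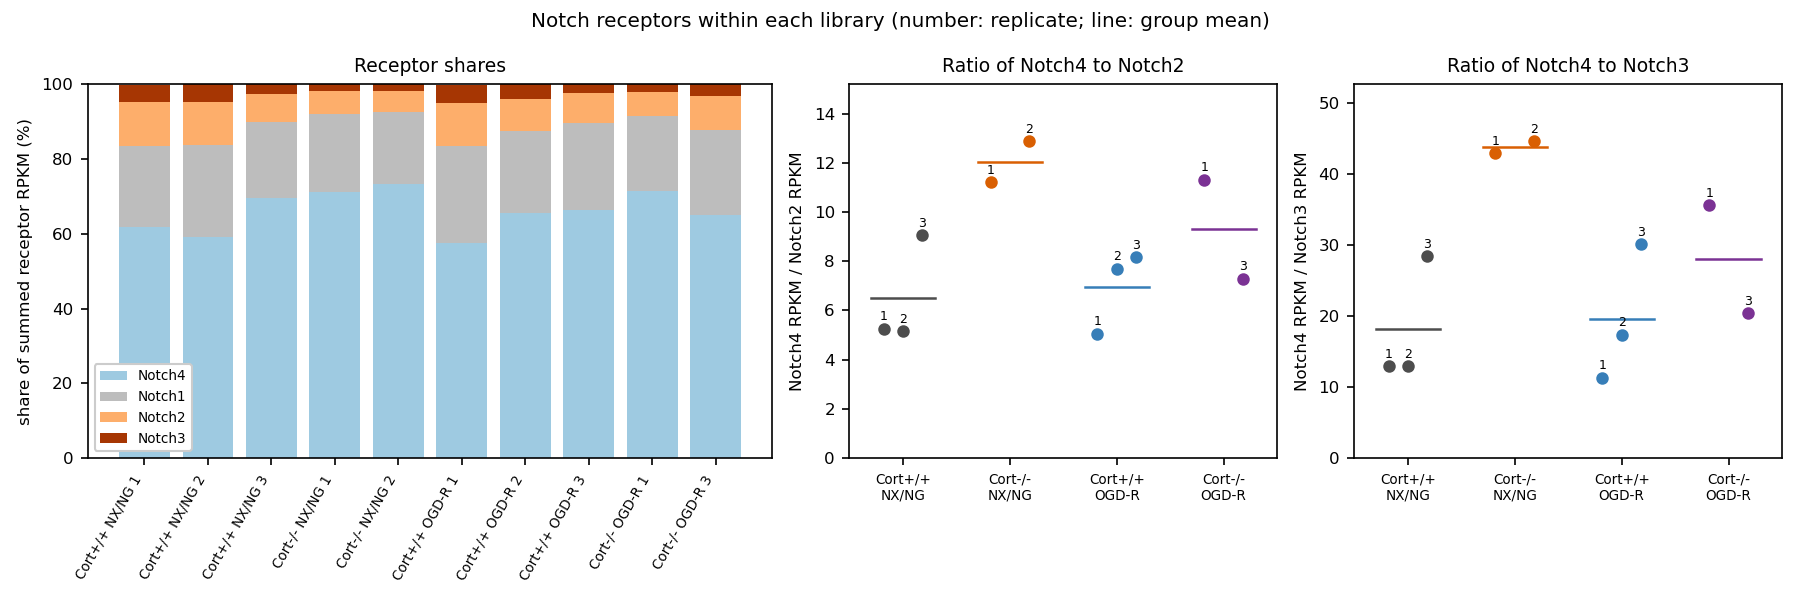
Left, share of each receptor in the summed RPKM of Notch1 to Notch4 in each library (stacked bars, %); middle and right, ratio of Notch4 to Notch2 and of Notch4 to Notch3 RPKM in each library (points, with the replicate number) and group mean (lines). The ratio of Notch4 to Notch3 is highest in the Cort-/- NX/NG libraries, at 42.8 and 44.5, and Cort+/+ NX/NG replicate 3 stands at 28.4, above the 12.9 of replicates 1 and 2.

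Several markers of other vascular cells lay lower together with Notch2 and Notch3 under NX/NG. The 8 pericyte markers summed to 9.54 and 12.3 RPKM in Cort-/- BECs and to between 19.8 and 24.6 RPKM in Cort+/+ BECs. Of these markers 7 of 8 had a negative log2 fold change and 3 had an unadjusted p under 0.05, namely Cspg4 (log2 fold change -1.91), Pdgfrb (-1.001) and Rgs5 (-0.86), whereas the defining markers Kcnj8 and Abcc9 were at or near 0 in every group. The 5 fibroblast markers summed to 62.8 and 93.6 RPKM in Cort-/- BECs and to between 157 and 224 RPKM in Cort+/+ BECs, with 2 of 5 at an unadjusted p under 0.05, the collagen genes Col1a1 (-1.35) and Col1a2 (-1.41), which make up nearly all of that sum. Of the fibroblast markers 3 had a negative and 2 a positive log2 fold change, the latter being Pdgfra (0.66) and Lum (0.15). The sum of the 5 smooth muscle markers overlapped between genotypes, with 4 of 5 log2 fold changes negative and that of Myh11 positive (0.29). Only Myl9 of the 5 did not overlap (197 and 239 RPKM in Cort-/- BECs against 240 to 263 RPKM). Of all genes averaging 1 RPKM or more, 32.9% did not overlap. The 10 endothelial markers summed to 1353 and 1493 RPKM in Cort-/- BECs and to between 1061 and 1325 RPKM in Cort+/+ BECs. A positive log2 fold change was seen for 9 of 10, and 1, Emcn (0.36), had an unadjusted p under 0.05. Of the 29965 genes tested, 14349 had a positive and 15616 a negative log2 fold change. No marker passed an FDR of 0.05 with limma, and the part of these markers in the values of Notch2, Notch3 and Notch4 was not tested.

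**Figure D3:**
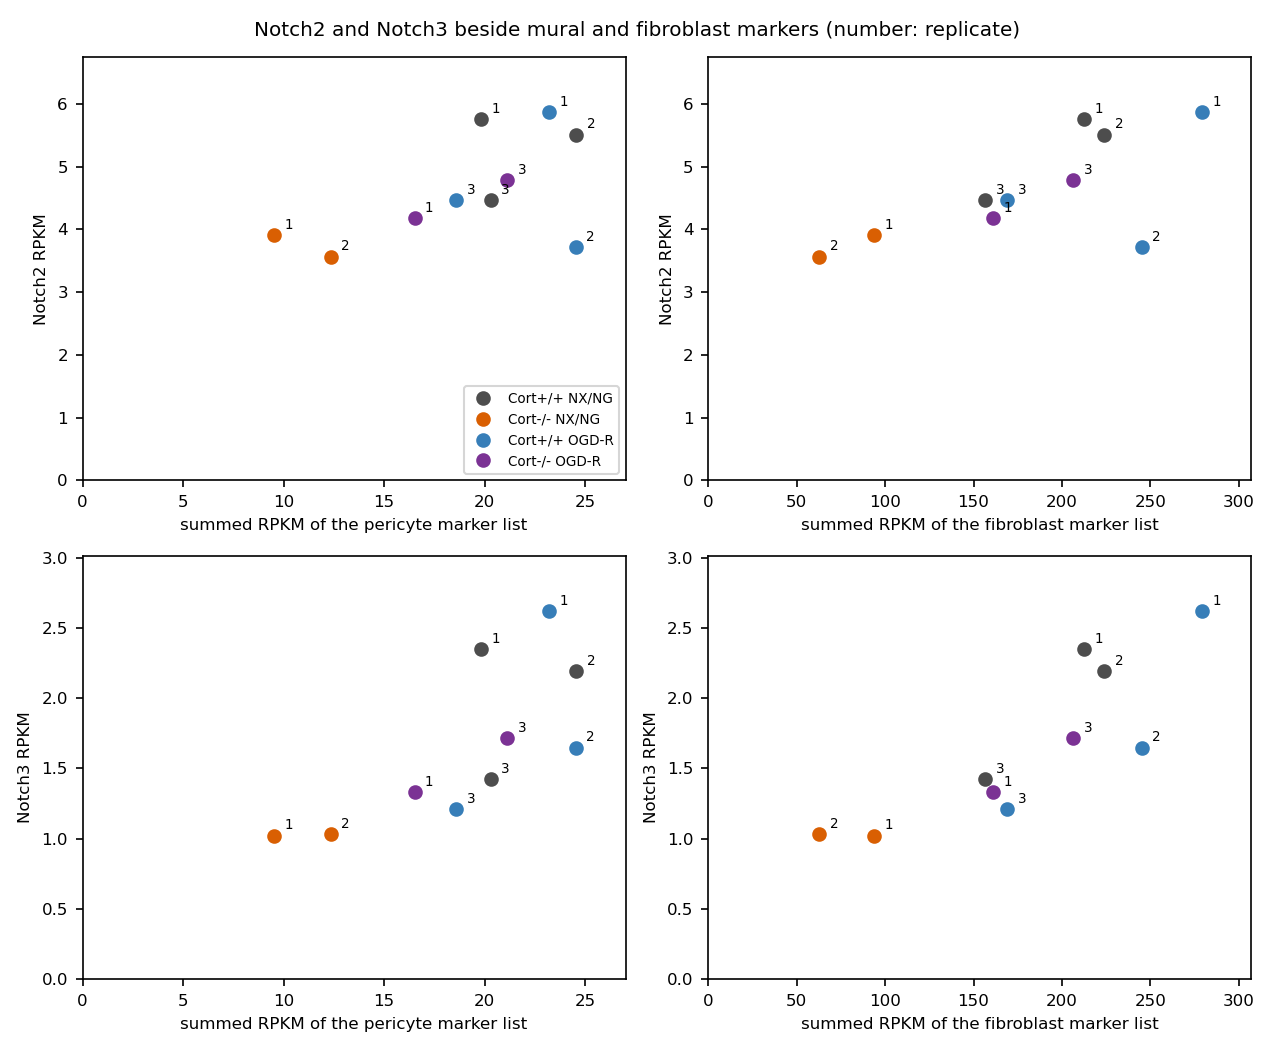
Notch2 (top) and Notch3 (bottom) RPKM against the summed RPKM of the pericyte (left) and fibroblast (right) marker lists in each of the 10 libraries (points, with the replicate number), on linear axes that start at 0. The Cort-/- NX/NG libraries have the lowest marker sums, 9.54 and 12.3 RPKM for the pericyte list, and the lowest Notch3, 1.02 and 1.03 RPKM.

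Among the ligands under NX/NG, Dll4, the main endothelial Delta-like ligand, was at 40.2 and 47.1 RPKM in Cort-/- BECs and at 33.6, 29.2 and 43.7 RPKM in Cort+/+ BECs. The groups overlapped through Cort+/+ replicate 3, and the log2 fold change of 0.31 (SE 0.19, interval -0.16 to 0.79, limma FDR 0.681) was within the spread between replicates. Jag1 was at 33.9 and 30.8 RPKM against 26.9, 37.9 and 28.1 RPKM, with a log2 fold change of 0.08 (SE 0.17, interval -0.34 to 0.50). Dll1 had 9 and 10 reads in the Cort-/- libraries and 8 to 13 reads in the Cort+/+ libraries, too few for any but a very large difference to be detectable at this depth.

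Among the targets under NX/NG, Hes1 was nearly equal in the 2 genotypes, at 14.2 and 14.4 RPKM in Cort-/- BECs and at 14.5, 14.9 and 14.0 RPKM in Cort+/+ BECs. Its log2 fold change was -0.02 (SE 0.05) and the interval, -0.15 to 0.11, was the narrowest of the 10 members. Hey1, at 1.91 and 1.76 RPKM against 2.77, 2.82 and 1.99 RPKM, did not overlap between groups, with Cort+/+ replicate 3 again next to the Cort-/- values. Its log2 fold change was -0.43 (SE 0.19, interval -0.91 to 0.06, unadjusted p = 0.0724, limma FDR 0.646). Heyl had 1 and 15 reads in the Cort-/- libraries and 7 to 9 reads in the Cort+/+ libraries and could not be compared at this depth.

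The same comparison after OGD-R asked whether genotype altered the members in injured endothelium. No member and no other gene passed an FDR of 0.05 with limma (0% of 29775 genes), and 1 member, Hey1, had an unadjusted p under 0.05, where 3.42% of all genes did. The groups did not overlap for Hey1 and Hes1, both with lower values in Cort-/- BECs, that is for 2 of the 8 members averaging 1 RPKM or more, against 16.1% of the 13833 genes of that level. The median log2 fold change of the 10 members was 0.14, beside -0.01 over all genes tested.

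Hey1, a repressor directly induced by Notch in endothelium, was at 2.43 and 1.89 RPKM in Cort-/- BECs and at 3.52, 2.84 and 2.79 RPKM in Cort+/+ BECs after OGD-R. The log2 fold change was -0.48 (SE 0.19, interval -0.96 to -0.01, unadjusted p = 0.0466, limma FDR 0.978), close in size to that under NX/NG. Without Cort+/+ replicate 1, the highest library and one of those low in Rn18s-rs5, it was -0.38 (unadjusted p = 0.121), and without both libraries low in Rn18s-rs5, which leaves 1 Cort-/- library, it was -0.21. Hes1 was at 16.0 and 17.7 RPKM against 19.3, 20.03 and 18.7 RPKM, with a log2 fold change of -0.20 (SE 0.09, interval -0.42 to 0.02, unadjusted p = 0.0705, limma FDR 0.978), and of -0.28 without both libraries low in Rn18s-rs5.

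Notch2 and Notch3 overlapped between genotypes after OGD-R. Notch3 was at 1.33 and 1.71 RPKM in Cort-/- BECs and at 2.62, 1.65 and 1.21 RPKM in Cort+/+ BECs, where replicate 1 was the highest of all 10 libraries. Its log2 fold change was -0.19 (SE 0.35, interval -1.08 to 0.69) and turned to 0.09 without that replicate. Notch2 was at 4.17 and 4.79 RPKM against 5.87, 3.72 and 4.46 RPKM, with a log2 fold change of -0.04 (SE 0.21) that turned to 0.13 without the same replicate. The pericyte markers summed to 16.5 and 21.1 RPKM in these Cort-/- libraries and to between 18.6 and 24.5 RPKM in the Cort+/+ libraries, and the fibroblast markers to 161 and 206 RPKM against 169 to 279 RPKM, so that here the marker sums overlapped too. The epithelial markers had positive log2 fold changes for 5 of 5 (median 2.10, Krt18 at an unadjusted p = 0.0346). They summed to 37.6 RPKM in Cort-/- replicate 1 but to 8.83 RPKM in replicate 3, against 1.43 to 7.46 RPKM in Cort+/+ BECs. Their part in the values after OGD-R was not tested.

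Notch4 was at 47.2 and 34.9 RPKM in Cort-/- BECs after OGD-R and at 29.6, 28.6 and 36.4 RPKM in Cort+/+ BECs. Its log2 fold change was 0.37 (SE 0.18, interval -0.07 to 0.81, limma FDR 0.978). It was 0.55 without both libraries low in Rn18s-rs5, which leaves 1 Cort-/- library. With single libraries left out it ran from 0.16 to 0.59. Only Cort-/- replicate 1 exceeded the highest Cort+/+ library. Notch1 (0.11, SE 0.17), Dll4 (0.17, SE 0.18) and Jag1 (0.18, SE 0.20) had positive log2 fold changes smaller than their standard errors. Dll1 had 4 and 8 reads against 1 to 7 reads, and Heyl had 6 and 21 reads against 8 to 11 reads.

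**Figure D4:**
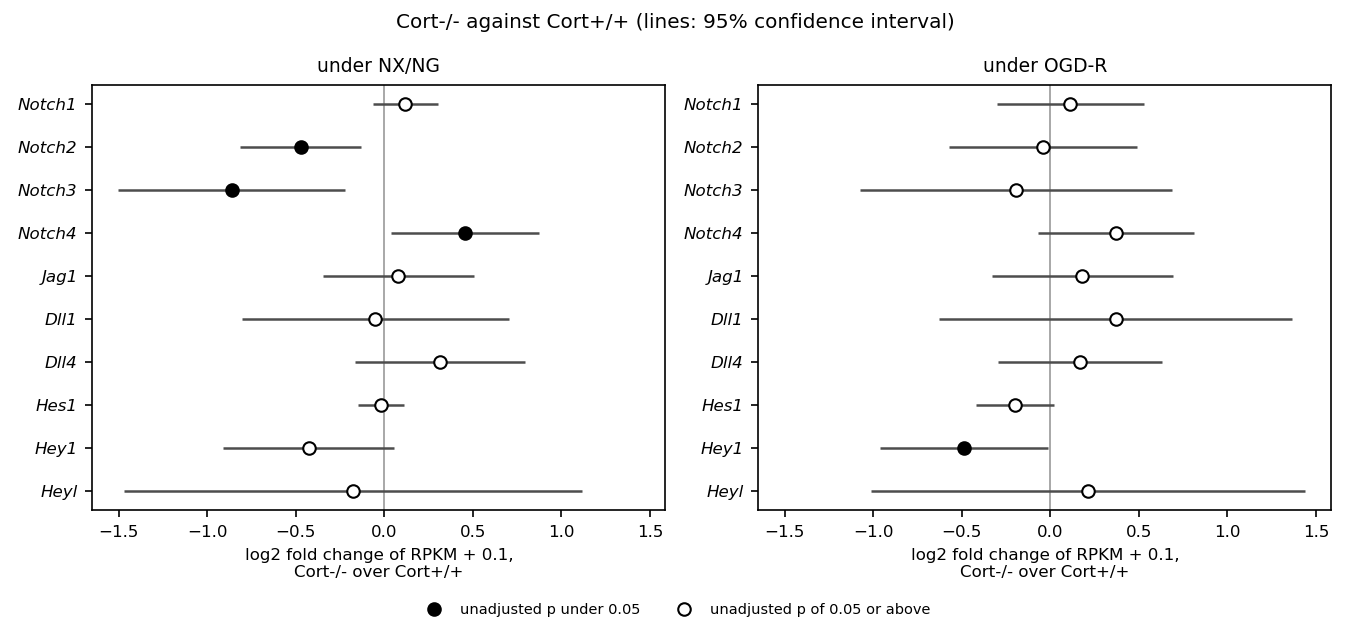
Log2 fold change of RPKM + 0.1, Cort-/- over Cort+/+, for each member under NX/NG (left) and OGD-R (right), with the 95% confidence interval from limma (lines) and filled points for an unadjusted p under 0.05. Notch2 (-0.47), Notch3 (-0.86) and Notch4 (0.46) are filled under NX/NG and Hey1 (-0.48) under OGD-R, and no member had an FDR of at most 0.05.

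The response to OGD-R was then compared within each genotype. Because the authors scaled the table of each environment separately, the reads of both tables were scaled jointly over the 10 libraries, and the levels in the following sentences are on that joint RPKM scale. In Cort+/+ BECs 9 of 27075 genes were called (0.0332%, limma FDR of at most 0.05) and no member was among them. At an unadjusted p under 0.05 there were 2 members, Hes1 with higher and Dll1 with lower values after OGD-R, against 5.48% of all genes. The median log2 fold change of the members was -0.13, beside -0.01 over all genes tested.

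Hes1, the HES repressor with the highest level here, was at 18.8, 19.5 and 18.3 RPKM in Cort+/+ BECs after OGD-R and at 14.9, 15.3 and 14.4 RPKM under NX/NG. All 3 libraries after OGD-R lay above all 3 under NX/NG, which held for no other of the 8 members averaging 1 RPKM or more, and 12.9% of genes of that level did not overlap in either direction. The log2 fold change was 0.34 (SE 0.06, interval 0.20 to 0.48, unadjusted p = 0.000745, limma FDR 0.395), that is 1.27-fold. It stayed between 0.32 and 0.36 when each of the 6 libraries was left out in turn, with an FDR between 0.360 and 0.866 over the alternatives.

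Dll1 had 7, 3 and 1 reads in Cort+/+ BECs after OGD-R and 9, 13 and 8 reads under NX/NG. The log2 fold change was -0.86 (SE 0.30, interval -1.60 to -0.13, unadjusted p = 0.0275, limma FDR 0.881) on the log2(RPKM + 0.1) scale, which understates changes of genes this low. The remaining members overlapped between environments in Cort+/+ BECs. Their log2 fold changes ran from -0.31 (SE 0.20) for Jag1 to 0.20 (SE 0.17) for Hey1, with Notch1 at -0.03 (SE 0.14) and Notch3 at -0.22 (SE 0.32).

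In Cort-/- BECs no member and no other gene was called between OGD-R and NX/NG (0% of 26523 genes with limma). None of the 10 members had an unadjusted p under 0.05, against 4.08% of all genes, and limma-voom gave 1, Notch3, against 3.96% of all genes. With 2 libraries against 2, the groups did not overlap for 4 of the 8 members averaging 1 RPKM or more, Hes1, Notch2 and Notch3 (higher after OGD-R) and Jag1 (lower), against 34.2% of the 13730 genes of that level. Dll1, below that level, did not overlap either (lower).

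Hes1 was at 15.6 and 17.3 RPKM after OGD-R and at 14.6 and 14.9 RPKM under NX/NG in Cort-/- BECs, with a log2 fold change of 0.15 (SE 0.09, interval -0.10 to 0.40). Notch3 was at 1.29 and 1.67 RPKM against 1.05 and 1.06 RPKM, with a log2 fold change of 0.44 (SE 0.24, interval -0.21 to 1.096), and Notch2 at 4.07 and 4.67 RPKM against 4.02 and 3.67 RPKM. Without replicate 3 after OGD-R, which was low in Rn18s-rs5 and whose absence leaves 1 library in that group, the log2 fold changes were 0.080 for Hes1, 0.27 for Notch3 and 0.081 for Notch2. Of the mural and fibroblast markers in the same comparison, Cspg4 (1.93), Pdgfrb (0.70), Col1a1 (1.13) and Col1a2 (1.31) had positive log2 fold changes at an unadjusted p under 0.05. By contrast 5 of 8 pericyte, 2 of 5 fibroblast and 5 of 5 smooth muscle markers had negative log2 fold changes. Of the smooth muscle markers Myh11 (-1.26) had an unadjusted p under 0.05. No marker passed an FDR of 0.05 with limma, and the part of these markers in the values of Notch2 and Notch3 was not tested. These 2 receptors thus had positive values in Cort-/- BECs and negative ones in Cort+/+ BECs, and the difference between the responses was tested as the interaction of genotype and environment.

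No member had an unadjusted p under 0.05 for the interaction, where 2.85% of all genes did, and 3 of 27321 genes were called (0.011%, limma). The difference of the responses, Cort-/- minus Cort+/+ on the log2 scale, was 0.66 (SE 0.46, interval -0.38 to 1.71) for Notch3, 0.43 (SE 0.27, interval -0.18 to 1.03) for Notch2 and -0.19 (SE 0.09, interval -0.40 to 0.03, unadjusted p = 0.0789) for Hes1. Without Cort+/+ OGD-R replicate 1 it was 0.94 (unadjusted p = 0.0406) for Notch3 and 0.60 (unadjusted p = 0.0238) for Notch2, both with a limma FDR of 0.997. These were the highest values of the 10 fits with single libraries left out. Those fits ran from 0.42 to 0.94 for Notch3 and from 0.28 to 0.60 for Notch2. For the interaction 2 of 8 pericyte markers had positive values at an unadjusted p under 0.05, Cspg4 (1.72) and Pdgfrb (0.76), and of the 5 fibroblast markers Col1a1 (0.91) and Col1a2 (1.44) had positive and Lum (-0.99) negative ones, with no marker called at an FDR of 0.05 with limma and their part not tested. The smaller value of Hes1 in Cort-/- BECs was therefore not separated from that in Cort+/+ BECs.

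**Figure D5:**
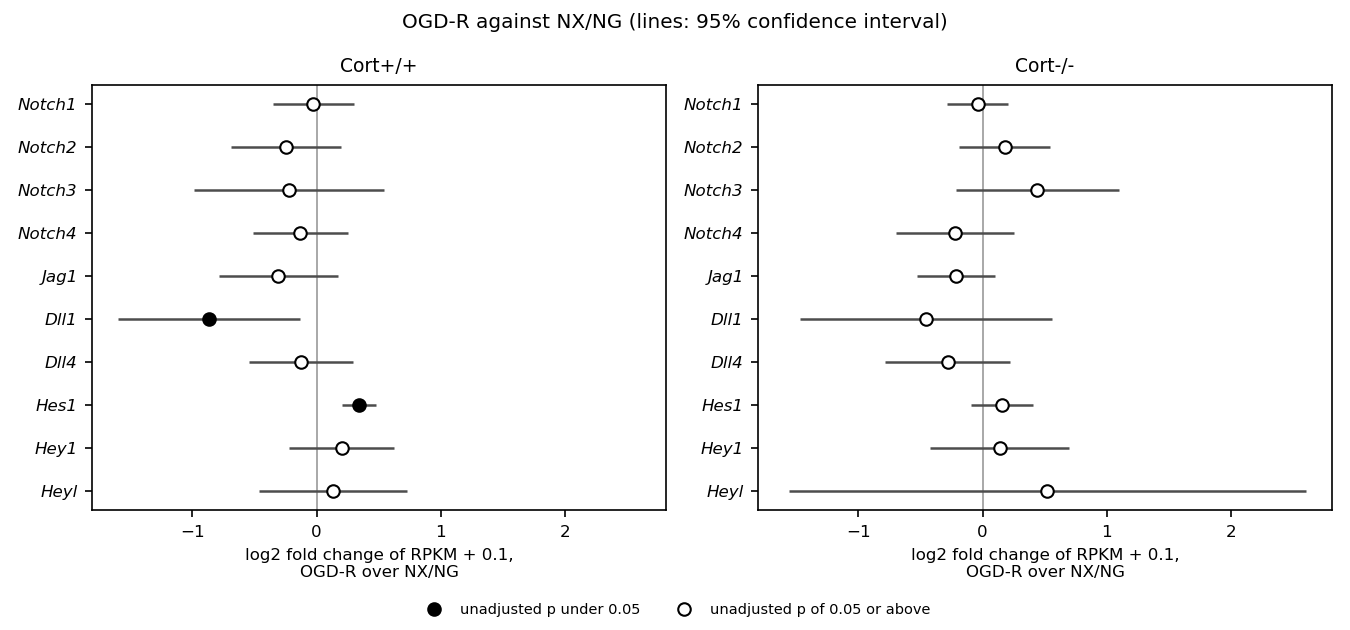
Log2 fold change of jointly scaled RPKM + 0.1, OGD-R over NX/NG, for each member in Cort+/+ (left) and Cort-/- (right) BECs, with the 95% confidence interval from limma (lines) and filled points for an unadjusted p under 0.05. Hes1 (0.34) and Dll1 (-0.86) are filled in Cort+/+ BECs, where the interval of Hes1 runs from 0.20 to 0.48.

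How the 8 members averaging 1 RPKM or more varied over the 10 libraries is described by Pearson's r of log2(joint RPKM + 0.1). Notch4 varied with Dll4 (r = 0.930) and Notch2 with Notch3 (r = 0.860), while Notch3 varied against Notch4 (r = -0.814) and Dll4 (r = -0.811). Hey1, a target, varied with Notch3 (r = 0.708) and against Notch4 (r = -0.758). Jag1 (r from -0.475 to 0.381) and Notch1 (-0.364 to 0.542) followed no other member closely. The libraries share genotype, environment and scaling, so these values describe the libraries and are no test. Among 13788 genes averaging 1 RPKM or more, the 3 most like Notch4 were Jade2 (r = 0.984), Lmo7 (0.981) and Sdc3 (0.980), and those most like Dll4 were Ppp1r16b (0.987), Zfp366 (0.983) and Cstf2 (0.982). The 3 most like Notch3 were Hs3st1 (0.983), Pcdhgc3 (0.975) and Adcy6 (0.960), and Fat1 (0.978), an atypical cadherin, was the most like Notch2. Hes1 and Hey1 had their most similar genes in Bpgm (0.949) and in F3 (0.954), the gene of tissue factor.

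The rest of the pathway was read from a list of 64 further genes grouped by role. Under NX/NG none of the 64 passed an FDR of 0.05, and at an unadjusted p under 0.05 there were 3 with higher and 5 with lower values in Cort-/- BECs, against 3.56% and 4.82% of all genes. Their median log2 fold change was 0.0026. Those with higher values were Eogt, which adds a sugar to Notch receptors (0.29, SE 0.10), the acetyltransferase Kat2b (0.34, SE 0.11) and the arterial transcription factor Sox17 (0.52, SE 0.18). Those with lower values were Rbpj, the nuclear partner of every Notch receptor (-0.26, SE 0.10), Lfng, a glycosyltransferase that tunes ligand choice (-0.38, SE 0.15), Numbl, a relative of the Notch inhibitor Numb (-0.45, SE 0.12), the co-receptor Nrp1 (-0.42, SE 0.08), and Hes7, which had 0 reads in both Cort-/- libraries but only 1 or 2 reads in each Cort+/+ library.

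Nrp1 was at 12.2 and 12.1 RPKM in Cort-/- NX/NG libraries and at 16.1, 17.8 and 15.3 RPKM in the Cort+/+ ones, and its FDR was 0.265 with limma and 0.0470 with limma-voom, so that the call depended on the tool. Of the 10 genes of receptor cleavage 9 averaged 1 RPKM or more (Aph1c did not). None of the 10 reached an unadjusted p under 0.05 with limma under NX/NG. With limma-voom Adam10 (unadjusted p = 0.0346, FDR 0.411) and Aph1b (unadjusted p = 0.0271, FDR 0.364) did. The share of all genes that did so with limma-voom is not given here, so this is no result about receptor cleavage. Adam10 was at 45.5 ± 1.14 RPKM (SD, n = 3) in Cort+/+ and 49.9 ± 2.82 RPKM (SD, n = 2) in Cort-/- BECs under NX/NG.

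After OGD-R 2 of the 64 genes had an unadjusted p under 0.05 between genotypes, Eogt with higher (0.29, SE 0.11) and the glycosyltransferase Rfng with lower values (-0.41, SE 0.12) in Cort-/- BECs, where 3.42% of all genes reached that level. Between environments there were 6 in Cort+/+ BECs, Psenen and Rfng with higher and Dner, Efnb2, Gja4 and Rbpj with lower values after OGD-R (5.48% of all genes), and 3 in Cort-/- BECs, Dtx3 with higher and Efnb2 and Nrarp with lower values (4.08% of all genes). Efnb2, an arterial ephrin and Notch target, had similar log2 fold changes in both genotypes, -0.21 (SE 0.06) in Cort+/+ and -0.26 (SE 0.08) in Cort-/- BECs. None of the 64 reached an unadjusted p under 0.05 for the interaction (2.85% of all genes), and none was called at an FDR of 0.05 with limma in any of the 5 comparisons, while limma-voom called Nrp1 under NX/NG alone.

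Genes close to a targeted locus are often inherited together with it from the founder strain. None of the 10 members lies within 10 Mb of Cort in GENCODE vM21 on GRCm38, the nearest on chromosome 4 being Heyl at 25.9 Mb, whereas Hes5, Mib2 and Spen among the 64 do.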

How the data were processed

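RNA-seq of 12 samples was listed, 10 of them with a column. The authors used their reanalyzerGSE software so that low expressed genes stayed in, and the submitters' processing notes name edgeR. Aligner, counter, genome build and annotation are not given in the sources used here. The deposited values are RPKM (reads scaled to gene length and library size), scaled by the authors within each environment. Not used were the authors' own comparisons (fold changes, p-values, group means, called genes) and 10 columns of expression categories. RPKM times length lay within 0.05 of a whole number of reads for at least 99.9958% of values, so reads were recovered.

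The test was limma 3.58.1 (R 4.3.3, moderated with a mean trend, two-sided) on log2(RPKM + 0.1), over all genes above 0 and only the groups compared. P-values were adjusted by Benjamini-Hochberg over all genes, with calls at an FDR of at most 0.05. Comparisons across environments and the interaction used recovered reads of the genes in both tables, scaled by the trimmed mean of M values. Samples were grouped as labelled, and p-values between genotypes measure the spread between pools of mice. Whether libraries of different environments share a pool could not be decided. The p-values between environments and for the interaction therefore assume independent pools. The fits were also run on simulated counts, with the same spread for every gene and no library low in ribosomal RNA. That run is therefore no evidence for the calls given here.

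Members, marker and pathway lists and tests were chosen with earlier results of these data known. Named genes are the members, Cort, Rn18s-rs5, markers, list genes at an unadjusted p under 0.05 or leading their role by level, and the 3 genes most like each member. The alternatives tried were another pseudocount (1), a filter (1 RPKM or more in 2 or more libraries), quantile normalization, a block for replicate number, limma-voom on recovered reads, one fit over all groups, a term for ribosomal RNA, and each library left out. Leaving out both libraries low in ribosomal RNA was added after seeing the data.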

Additional observations from a re-analysis of the deposited data

How the results depend on the processing

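No member was called in any comparison under any alternative, and 295 of the 300 log2 fold changes of members outside the left-out libraries kept their direction and their side of the threshold. The 5 that turned were all small. They were Dll1 for genotype under NX/NG (0.019) and Notch1 for the interaction (0.012) under quantile normalization, Notch1 for genotype under OGD-R (-0.035) and Hey1 for the interaction (0.061) with the replicate block, and Notch2 for genotype under OGD-R without both libraries low in ribosomal RNA (0.035). The cause was not tested.

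The number of members at an unadjusted p under 0.05 was less stable. The number of all genes at that level also changed with libraries left out. Its share with limma-voom is given here only for OGD-R in Cort-/- BECs. The counts that follow are therefore no result about the members. For genotype under NX/NG it was 3, rose to 5 with limma-voom, and ran from 1 to 5 with single libraries left out. For genotype under OGD-R it was 1, with 0 at a pseudocount of 1, with the replicate block, with the term for ribosomal RNA and without both libraries low in it, and 2 with limma-voom and in one fit over all groups (0 to 1 with libraries left out). For OGD-R in Cort+/+ BECs it was 2, and 1 under the filter on low values, which removes Dll1 (1 to 4 with libraries left out). For OGD-R in Cort-/- BECs it was 0, and 1 with limma-voom (0 to 3 with libraries left out). For the interaction it was 0, and 0 to 2 with libraries left out.

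Leaving out single libraries turned 36 of 300 values, in 22 of 50 results. The ranges of these results follow. For genotype under NX/NG they were Heyl from -0.93 to 0.58, Jag1 from -0.013 to 0.23, Dll1 from -0.12 to 0.055 and Hes1 from -0.041 to 0.0030. For genotype under OGD-R they were Notch2 from -0.19 to 0.13, Dll4 from -0.044 to 0.38, Heyl from -0.42 to 0.85, Notch3 from -0.44 to 0.088 and Notch1 from -0.035 to 0.21. For OGD-R in Cort+/+ BECs they were Notch1 from -0.12 to 0.12, Notch4 from -0.24 to 0.026, Dll4 from -0.26 to 0.034 and Notch3 from -0.50 to 0.023. For OGD-R in Cort-/- BECs they were Heyl from -0.25 to 1.29, Hey1 from -0.036 to 0.31 and Notch1 from -0.10 to 0.021. For the interaction they were Notch1 from -0.16 to 0.083, Heyl from -0.38 to 1.16, Notch4 from -0.31 to 0.13, Jag1 from -0.059 to 0.27, Hey1 from -0.24 to 0.11 and Dll4 from -0.36 to 0.057. Where this, or leaving out both libraries low in ribosomal RNA, left 1 library in an arm, that library was assumed to vary like the others.

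Counts over all genes depended on the tool. Under NX/NG 0 genes were called with limma, 20 at a pseudocount of 1, 124 with limma-voom and 4 in one fit over all groups (0 to 683 with libraries left out). Under OGD-R 0 were called, 5 with limma-voom and 7 in one fit (0 to 710). For OGD-R in Cort+/+ BECs 9 were called, 5 at a pseudocount of 1, 1 with limma-voom and 0 under the filter, the replicate block, one fit or any left-out library. For the interaction 3 were called, and 0 at a pseudocount of 1, under the filter, the block, limma-voom or the ribosomal term (0 to 8). At an unadjusted p under 0.05 the filter left 533, 959, 539 and 265 genes under OGD-R, in Cort+/+, in Cort-/- and for the interaction, as fewer genes were tested. Of the same-numbered libraries of different groups, 3 of 12 pairs had a correlation over 0.1 (range -0.53 to 0.19). The 25 other pairs ran from -0.33 to 0.53. These correlations used deviations from group means, which mirror each other where a group holds 2 libraries. The check therefore cannot decide whether same-numbered libraries are paired. The term for ribosomal RNA could be fitted neither under NX/NG nor between environments within a genotype, and the block could not be fitted between environments in Cort-/- BECs. With 2 or 3 libraries a group, Dll1 and Heyl could not be resolved.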
